A study of Mus musculus with 8 samples.

Results

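The genes described here encode the adaptor proteins and kinases of focal adhesions, the plaques through which a cell grips its matrix. They were chosen by name: 34 listed symbols, with integrins themselves left out, were looked up among the 29844 Ensembl genes of the coding count table, and all 34 were found, 1 row each. RNA was sequenced from primary cardiomyocytes of mouse embryos at stage E18.5, isolated from digested hearts and kept for 4 days in serum-containing medium until they were confluent and beating. All animals were B6.Cg-Tg(HIST1H2BB/EGFP)1Pa/J mice, so cells on both substrates carried the transgene for a green fluorescent histone, and no library came from animals without it. The cells had been plated on polydimethylsiloxane, a silicone rubber, that was soft (about 10 kPa, 4 libraries) or stiff (about 150 kPa, 4 libraries), and the comparison asks how stiffness bears on transcript levels. The protocols name no sorting step after the digest. The labels do not say if libraries on 1 substrate stem from separate litters or cultures, so each p reflects library-to-library spread that may be technical in part. The library codes in the titles begin differently for soft and stiff, and whatever those codes mark cannot be told apart from the substrate. Apart from the codes, the 4 titles on 1 substrate read alike. The library numbers 1 to 4 used here follow sample order and the last digit of the code. Coding totals ran from 27646471 to 34693673 reads per library, and the member genes held from 342 reads (Parvb in stiff 2) to 57677 reads (Flna in stiff 3) in a library.

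Integrins bind matrix outside the cell but have no enzyme activity of their own, and they do not bind actin directly. Talins and kindlins attach to integrin tails and switch the receptors on, and vinculin, alpha-actinins, filamins and tensins tie the complex to actin. A pseudokinase complex of ILK, PINCH and parvin stabilises the link, while FAK and Src phosphorylate the scaffolds paxillin and p130Cas and so start signalling through Crk, PIX, GIT and PAK. Part of this machinery opens under pulling force, and some LIM proteins such as zyxin move to stretched actin. In heart muscle the same proteins sit at costameres, which couple the Z-discs of the sarcomere to the cell surface, and at intercalated discs.

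No focal adhesion gene differed between soft and stiff beyond the spread between libraries. Of the 34 members, all of which passed the filter on low counts, 0 were called higher and 0 lower on stiff by edgeR's quasi-likelihood test at an adjusted p under 0.05, and every one of their adjusted p-values rounded to 1.00. Among all 14059 coding genes tested the called share was 0% too. At an unadjusted p under 0.05 there were 0 members, against 0.925% of all tested genes, and the smallest member p, that of Bcar1, ranked only 836th in the table. Soft and stiff ranges did not separate for any member, against 1.29% of all tested genes. With both shares so low over all tested genes, 0 of 34 members does not set the members apart from other genes. The difference was smaller than its standard error (SE) for 30 of the 34, and the exceptions were Actn1, Tgfb1i1, Vasp and Bcar1. Estimates were lower on stiff for 22 members and higher for 12, a share of 64.7% lower against 51.9% among all tested genes. The median log2 fold change (stiff over soft) of the members was -0.09, against -0.01 over all tested genes. Among the 7915 tested genes within the members' range of mean CPM, 48.5% had a lower estimate.

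For each gene taken alone, the spread between libraries also bounded how far the soft and stiff libraries could differ. Levels are given as CPM, read counts brought to a common library total after TMM scaling of the coding table. The unadjusted 95% interval of a member reached a median of 1.34-fold to either side, against 1.51-fold for all tested genes. For tested genes within the members' range of mean CPM the median was 1.37-fold. The interval lay inside a 2-fold change in both directions for 32 of 34 members, and inside 1.5-fold for 21 of them. The highest upper bound was 1.61-fold, for Sorbs3, and the lowest lower bound 0.480-fold, for Tgfb1i1. The other interval that reached past 2-fold was that of Flnc. Substrate accounted for a median of 3.84% of the sum of squares of a member's log2 CPM. The median was 4.79% over all tested genes and 3.82% over those within the members' range of mean CPM.

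**Figure D1:**
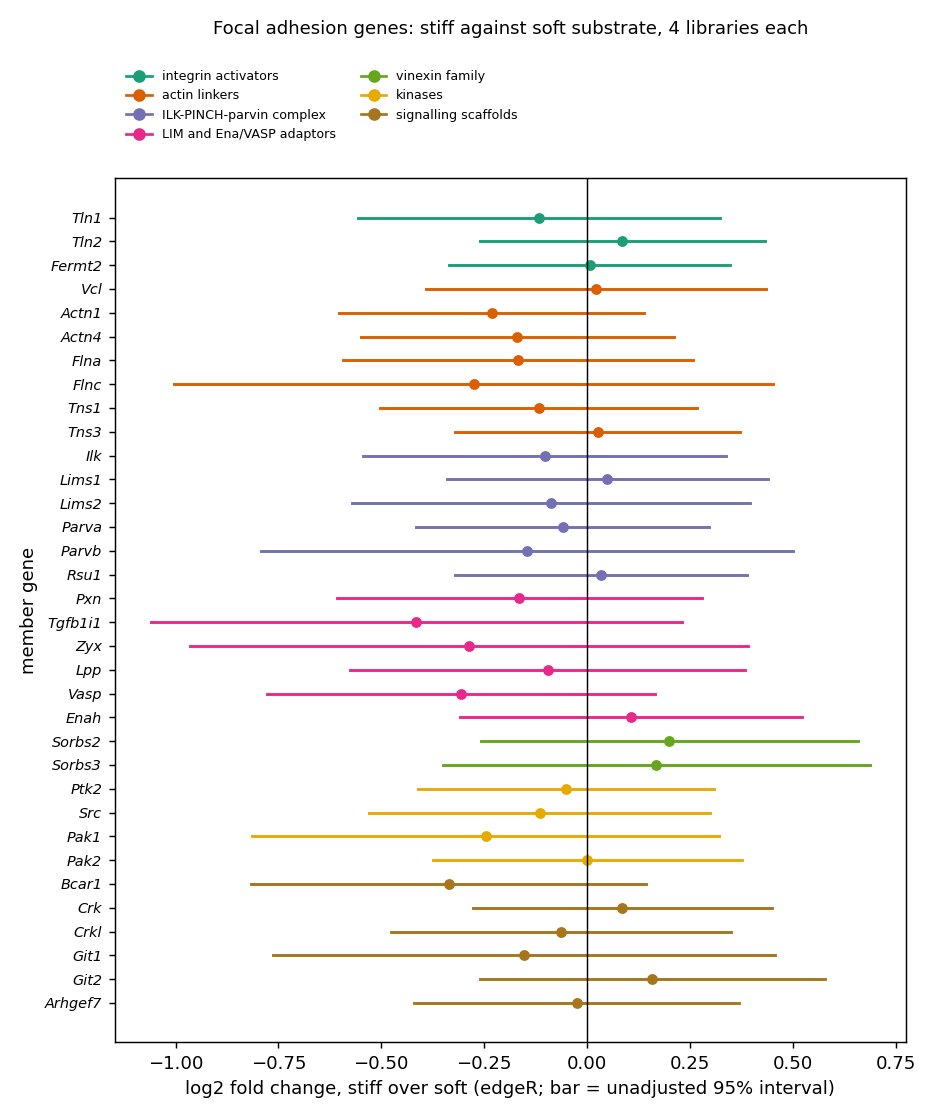
Log2 fold change, stiff over soft, for each of the 34 member genes (point) with its unadjusted 95% interval (bar), coloured by role in the adhesion. All 34 bars cross 0, from Tgfb1i1 at -0.41 to Sorbs2 at 0.20.

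Promoter windows of the members are shown because stretch and stiffness are classically read out through SRF, TEAD and AP-1, factors that act on cytoskeletal genes. Windows of 300 bases, from 250 before to 50 after a RefSeq start site on GRCm38.p6, were at hand for 26 of the 34 members (39 windows). The CArG box, the binding motif of SRF, matched without mismatch in 3 of the 39 and in 1.63% of all 32851 windows; it was searched on both strands. The 3 genes were Vcl, Fermt2 and Rsu1. The TEAD motif GGAATG or its reverse complement CATTCC was in 6 windows of 5 members (Flna, Flnc, Lpp, Actn4 and Vcl) and in 14.7% of all windows. The AP-1 motif TGANTCA, which reads the same on both strands, was in 2 windows (Zyx and Actn4) and in 7.81% of all. No 2 of these matches overlapped except the same Flnc site seen in both of its windows. A match is a description of the letters and not evidence of binding. Capitals mark the CArG box in Vcl, Fermt2 and Rsu1, in Vcl also GGAATG, and in Zyx TGANTCA. The Vcl window spans chr14:20929148-20929447 on the plus strand, with its CArG box 227 bases before the start site. The other stretches are chr14:45530235-45530294 (minus strand) for Fermt2, chr2:13271366-13271412 (minus) for Rsu1, where the box lies 28 bases after the start site, and chr6:42349682-42349738 (plus) for Zyx.
Vcl: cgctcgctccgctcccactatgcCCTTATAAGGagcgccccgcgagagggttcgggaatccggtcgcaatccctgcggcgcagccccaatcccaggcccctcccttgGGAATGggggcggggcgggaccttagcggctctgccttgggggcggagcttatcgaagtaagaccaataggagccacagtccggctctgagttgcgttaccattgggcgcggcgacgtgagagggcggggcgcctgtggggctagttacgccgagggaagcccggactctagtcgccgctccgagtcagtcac
Fermt2: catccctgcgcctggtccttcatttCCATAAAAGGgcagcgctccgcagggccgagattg
Rsu1: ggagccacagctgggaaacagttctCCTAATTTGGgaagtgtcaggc
Zyx: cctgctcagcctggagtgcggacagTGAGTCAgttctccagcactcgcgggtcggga
The 3 members with a CArG box in the window had log2 fold changes of 0.02, 0.01 and 0.03, and those with GGAATG ran from -0.28 (Flnc) to 0.02 (Vcl).

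In this and the following paragraphs square brackets hold the unadjusted 95% interval of the log2 fold change, stiff over soft. Of the 3 genes whose products activate integrins, 1 had a lower and 2 had a higher estimate on stiff. The talin gene Tln1 had the widest range of them. Tln1 stood at 346, 297, 362 and 572 CPM in soft 1 to 4 and at 339, 293, 399 and 425 CPM in stiff 1 to 4. Soft 4 stood above all 7 other libraries, and the substrates overlapped. The log2 fold change of Tln1 was -0.12 [-0.56 to 0.32]. Tln2, the second talin, which is prominent in striated muscle, ranged from 246 to 324 CPM on soft substrate and from 270.4 to 331 CPM on stiff, with stiff 1 the highest and a log2 fold change of 0.09 [-0.26 to 0.43]. For Fermt2 the soft libraries 1 to 4 gave 374, 475, 418 and 385 CPM, and the stiff libraries 1 to 4 gave 361, 421, 425 and 452 CPM. Fermt2 encodes kindlin-2, the main kindlin of heart muscle, and its 8 values lay close together, with a log2 fold change of 0.01 [-0.34 to 0.35].

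The 7 actin linkers had 5 lower and 2 higher estimates on stiff, a median log2 fold change of -0.17 and 0 calls. For Vcl the soft libraries 1 to 4 gave 1020.4, 1198, 857 and 721 CPM, and the stiff libraries 1 to 4 gave 1028, 1172, 782 and 874 CPM. Vcl encodes vinculin, which binds talin stretched under load. It was 1 of the 3 members with a CArG box in the window. All 4 stiff values lay inside the soft range, and its log2 fold change was 0.02 [-0.39 to 0.43]. Flna stood at 1335, 1195, 1785 and 1795 CPM in soft 1 to 4 and at 1199, 1055, 1729.6 and 1455 CPM in stiff 1 to 4. Flna encodes filamin A, a crosslinker of actin networks. Soft 3, soft 4 and stiff 3 were its 3 highest libraries, and stiff 2 was the lowest, with a log2 fold change of -0.17 [-0.59 to 0.26]. For Flnc the soft libraries 1 to 4 gave 228, 227, 359.9 and 692 CPM, and the stiff libraries 1 to 4 gave 263, 229.6, 358 and 394 CPM. Flnc is the muscle filamin of Z-discs and costameres. Soft 4 held 1.39 log2 units more of it than the mean of the other soft libraries, the largest such gap of any member. The log2 fold change of Flnc was -0.28 [-1.004 to 0.45], and it turned to 0.20 without soft 4.

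Alpha-actinins crosslink actin filaments, and Actn1 and Actn4 are the forms found outside the sarcomere. Actn1 stood at 585, 611, 663 and 769 CPM in soft 1 to 4 and at 458, 527, 572 and 684 CPM in stiff 1 to 4. The 3 lowest libraries of Actn1 were stiff and the highest was soft, but stiff 4 lay above 3 of the soft libraries. Between libraries of the same number, which follows sample order and which the labels do not say marks pairs, Actn1 was lower on stiff in 4 of 4. The same held for Flna and Tgfb1i1, and Git2 was higher on stiff in 4 of 4, so that 11.8% of members had 1 sign throughout, against 10.2% of all tested genes. For Actn1 the log2 fold change of -0.23 [-0.60 to 0.14] was the only one among the members with means further apart than the larger of the SDs, at 657 ± 81.2 CPM (SD, n = 4) on soft and 560.0 ± 94.96 CPM (SD, n = 4) on stiff. For Actn4 the soft libraries 1 to 4 gave 298, 360.5, 392 and 439.7 CPM, and the stiff libraries 1 to 4 gave 394, 311, 266 and 354 CPM. Here stiff 3 was lowest and soft 4 highest, and the log2 fold change was -0.17 [-0.55 to 0.21]. Tensins bind integrin tails and actin in elongated adhesions. Tns1 stood at 542, 598, 502 and 602 CPM in soft 1 to 4 and at 578, 390.0, 461 and 640.4 CPM in stiff 1 to 4. Stiff held both the highest and the lowest value of Tns1, with a log2 fold change of -0.12 [-0.50 to 0.27]. Tns3 ranged from 289.7 to 348 CPM on soft substrate and from 279 to 365 CPM on stiff, at 0.03 [-0.32 to 0.37].

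The 6 genes around ILK had 4 lower and 2 higher estimates and 0 calls, with a median log2 fold change of -0.07. Ilk ranged from 123 to 229.8 CPM on soft substrate and from 127 to 174 CPM on stiff, with soft 4 the highest, and its log2 fold change was -0.10 [-0.54 to 0.34]. For Lims1 the soft libraries 1 to 4 gave 553, 579.9, 434 and 361 CPM, and the stiff libraries 1 to 4 gave 492, 581, 435 and 487 CPM. Lims1 encodes PINCH1, which binds ILK through its LIM domains. In contrast to Ilk, its lowest library was soft 4, and the log2 fold change was 0.05 [-0.34 to 0.44]. The related PINCH2 gene Lims2 ranged from 32.1 to 58.3 CPM on soft substrate and from 35.8 to 56.2 CPM on stiff (-0.09 [-0.57 to 0.40]). Parva, the widely expressed alpha-parvin, ranged from 224 to 271 and from 199 to 287 CPM (-0.06 [-0.42 to 0.30]), and the muscle-rich beta-parvin gene Parvb from 12.4 to 26.6 and from 11.6 to 26.02 CPM (-0.15 [-0.79 to 0.50]), on soft and stiff respectively. Rsu1, whose product binds PINCH1, ranged from 84.0 to 112 and from 87.9 to 109.9 CPM (0.03 [-0.32 to 0.39]).

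On the full set of libraries, the 6 LIM and Ena/VASP adaptors had the lowest median of the 7 roles, a log2 fold change of -0.22. They had 5 lower and 1 higher estimate and 0 calls. For 66.7% of them soft 4 lay over 0.5 log2 units from the mean of the other soft libraries. Without soft 4 their estimates ran from -0.28 (Lpp) to 0.16 (Enah), and medians by role were not computed. Zyx stood at 59.8, 67.3, 87.0 and 169 CPM in soft 1 to 4 and at 72.3, 49.7, 89.2 and 103 CPM in stiff 1 to 4. Zyx encodes zyxin, which gathers at strained actin fibres. Soft 4 stood apart from the other soft libraries, all of which lay within the range of the stiff ones. Its log2 fold change of -0.29 [-0.96 to 0.39] turned to 0.14 without soft 4. For Lpp the soft libraries 1 to 4 gave 1338, 1915, 1603 and 823 CPM, and the stiff libraries 1 to 4 gave 1501, 1487, 1069 and 1258 CPM. Lpp encodes a relative of zyxin that is abundant in smooth muscle. Here soft 4 was the lowest library, so Zyx and Lpp were at opposite ends in the same sample; the log2 fold change of Lpp was -0.10 [-0.58 to 0.38]. Tgfb1i1 stood at 15.5, 21.4, 24.5 and 32.7 CPM in soft 1 to 4 and at 15.4, 16.1, 12.3 and 26.8 CPM in stiff 1 to 4. Tgfb1i1 encodes Hic-5, a paxillin relative of smooth muscle and activated fibroblasts. Soft 1 lay among the 3 low stiff libraries, and stiff 4 lay above 3 of the 4 soft ones. The estimate for Tgfb1i1, -0.41 [-1.06 to 0.23], was the furthest from 0 of all members on the full set of libraries and had one of the widest intervals. It was -0.21 without soft 4, nearer to 0 than that of Lpp (-0.28), and -0.69 without stiff 4.

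Paxillin itself (Pxn), a central docking protein, ranged from 39.1 to 58.7 CPM on soft substrate and from 35.1 to 47.8 CPM on stiff, at -0.16 [-0.61 to 0.28]. For Vasp the soft libraries 1 to 4 gave 86.5, 71.3, 106 and 138 CPM, and the stiff libraries 1 to 4 gave 69.9, 62.5, 108 and 84.7 CPM. Vasp promotes growth of actin filaments at adhesions. Soft 4 was the highest library and stiff 2 the lowest, and stiff 3 exceeded 3 of the soft libraries. Its log2 fold change was -0.31 [-0.78 to 0.16]. Enah stood at 357, 468, 363 and 445 CPM in soft 1 to 4 and at 380.5, 396, 359 and 621 CPM in stiff 1 to 4. Enah encodes the related protein Mena, which in heart lies at intercalated discs. Stiff 4 stood far above the other 3 stiff libraries, which lay within the soft range, and the log2 fold change was 0.11 [-0.31 to 0.52].

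The products of the 2 vinexin family genes bind vinculin, and both genes had higher estimates on stiff with 0 calls. For Sorbs2 the soft libraries 1 to 4 gave 932, 1198, 787 and 983 CPM, and the stiff libraries 1 to 4 gave 1159.7, 1147, 693 and 1482 CPM. Sorbs2 encodes ArgBP2, found at cardiac Z-discs. Both its extremes were stiff libraries, stiff 3 and stiff 4, and its log2 fold change of 0.20 [-0.26 to 0.66] was the highest of the members. Sorbs3, the vinexin gene, ranged from 24.4 to 44.7 CPM on soft substrate and from 29.2 to 43.7 CPM on stiff, at 0.17 [-0.35 to 0.69].

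The 4 kinase genes had 3 lower and 1 higher estimate and 0 calls. Ptk2, the gene of focal adhesion kinase (FAK), ranged from 153 to 184 CPM on soft substrate and from 137 to 202 CPM on stiff, with a log2 fold change of -0.05 [-0.41 to 0.31]. Src, whose product FAK recruits, ranged from 45.8 to 67.4 and from 41.0 to 55.6 CPM (-0.12 [-0.53 to 0.30]). Pak1 stood at 15.6, 35.1, 22.2 and 29.6 CPM in soft 1 to 4 and at 20.8, 22.5, 20.2 and 23.1 CPM in stiff 1 to 4. Pak1 encodes a kinase that acts below Rac and Cdc42. Its 4 stiff libraries lay within 3 CPM of each other and inside the soft range, which held both the highest and the lowest value, and its log2 fold change was -0.25 [-0.81 to 0.32]. Pak2 ranged from 110.1 to 155 and from 119 to 172 CPM, and its estimate was the nearest to 0 of all, 0.0009 [-0.37 to 0.38].

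The 6 signalling scaffolds had 4 lower and 2 higher estimates and 0 calls. Among them, Bcar1 had the smallest unadjusted p of the members (adjusted p = 0.99997 by edgeR). In 3 of the 4 stiff libraries it lay below its soft mean. For Bcar1 the soft libraries 1 to 4 gave 67.1, 55.4, 84.1 and 106 CPM, and the stiff libraries 1 to 4 gave 68.3, 45.8, 78.9 and 54.3 CPM. Bcar1 encodes p130Cas, a substrate of Src that is phosphorylated when stretched. The 2 lowest libraries were stiff and the highest was soft 4, but stiff 3 lay above 2 of the soft libraries. Its log2 fold change was -0.34 [-0.82 to 0.14], and leaving out single libraries moved it between -0.48 and -0.15. Crk, an adaptor that binds phosphorylated p130Cas, ranged from 270.3 to 346 CPM on soft substrate and from 275 to 386 CPM on stiff (0.09 [-0.28 to 0.45]). Its relative Crkl ranged from 48.4 to 66.5 and from 44.6 to 64.4 CPM (-0.06 [-0.48 to 0.35]). Git1 and Git2 encode scaffolds that turn off Arf proteins and bind PIX. Git1 ranged from 15.1 to 36.0 and from 16.8 to 24.4 CPM (-0.15 [-0.76 to 0.46]), and Git2 from 36.4 to 51.1 and from 41.7 to 54.6 CPM (0.16 [-0.26 to 0.58]). Arhgef7, the beta-PIX exchange factor gene, ranged from 141 to 231 and from 141 to 194 CPM (-0.02 [-0.42 to 0.37]).

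**Figure D2:**
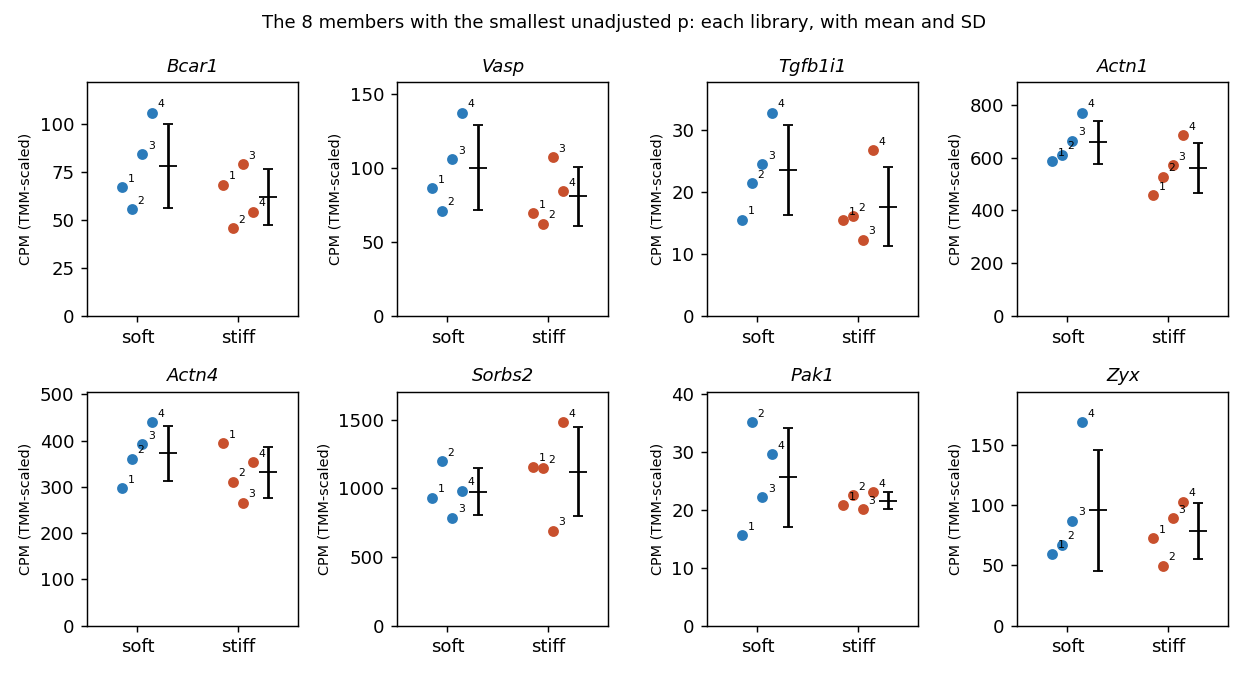
CPM of the 8 members with the smallest unadjusted p in each soft (blue) and stiff (red) library, with the library number beside each point and the mean and SD as a bar; the axes start at 0. The substrates overlap in all 8 panels, and soft 4 is the highest soft library in all of them but Sorbs2 and Pak1.

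Libraries of 1 substrate differed from each other in these genes, and soft 4 stood furthest apart. Soft 4 was the highest of the 8 libraries for 16 members and the lowest for 5, and stiff 2 was the lowest for 9. Against the mean of the other 3 soft libraries, soft 4 was over 0.5 log2 units higher for 11 members and over 0.5 lower for Lims1 and Lpp. These 13 make up 38.2% of the members. The same limit was passed by 45.8% of all tested genes and by 34.2% of those within the members' range of mean CPM. In the other 7 libraries the share ran from 0% to 23.5% of members and from 28.2% to 40.9% of all tested genes. Members above in soft 4 included Flnc (1.39), Zyx (1.26), Git1 (0.96), Tln1 (0.78) and Ilk (0.77), in log2 units. Members below included Lpp (-0.96), Lims1 (-0.52) and Vcl (-0.49). Without soft 4 the members were nearly even, with 18 lower and 16 higher on stiff, and their median log2 fold change was -0.02.

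**Figure D3:**
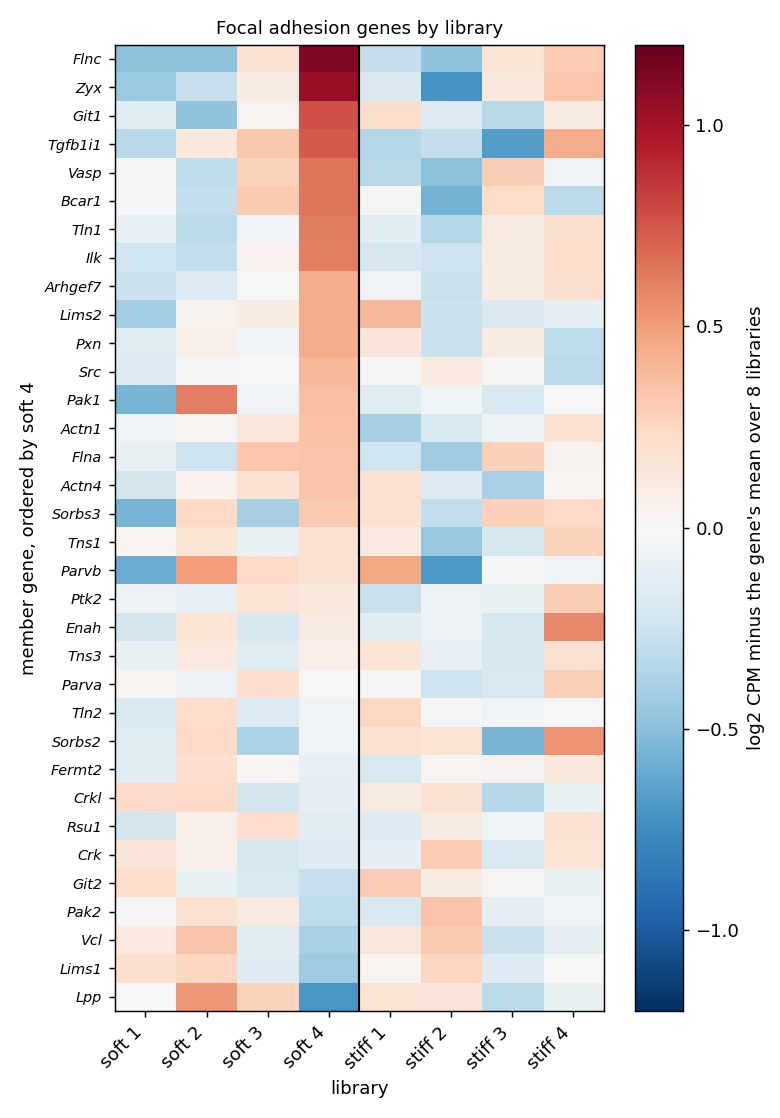
Log2 CPM of each member minus its mean over the 8 libraries (colour), with the 4 soft libraries left of the line and the 4 stiff ones right of it, and genes ordered by soft 4. Within both substrates the libraries differ from each other, and soft 4 runs from the highest values at the top (Flnc, Zyx) to the lowest at the bottom (Lims1, Lpp).

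Markers of the cell types in the cultures also differed between libraries. Since the RNA is from bulk cultures, fewer cells of a type and less RNA per cell cannot be told apart. The 12 cardiomyocyte markers, all of them tested, summed to 37327 CPM in soft 4 and 32759 CPM in stiff 4, against 20398 to 24806 CPM in the other 6 libraries. The 14 fibroblast markers summed to 8599 to 15306 CPM on soft and 7977 to 12612 CPM on stiff, with soft 3 and soft 4 the highest. The 10 smooth muscle and pericyte markers, 1 of which had an unadjusted p under 0.05, all had lower estimates on stiff, and their sum ran from 2583 to 4122 CPM on soft and from 2378 to 3555 CPM on stiff. Endothelial, leukocyte and epicardial markers summed to at most 332, 182 and 1232 CPM in a library, and the endothelial marker Cldn5 was at 0 in all 8. What part these cells had in the members' levels was not tested.

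The smooth muscle and pericyte markers had the largest difference in mean score (the average of the centred log2 CPM of a list) between substrates of the 6 lists, -0.50 on stiff against soft. That score was -0.30, 0.18, 0.56 and 0.56 in soft 1 to 4 and -0.20, -0.27, -0.29 and -0.23 in stiff 1 to 4. Soft 1 lay below all 4 stiff libraries and the other soft ones lay above them. No relation of members to this score was computed, so its part in the estimates of Tgfb1i1 or other members was not tested. The cardiomyocyte and fibroblast scores differed by -0.03 and -0.09. Members were compared with the cardiomyocyte and fibroblast scores of the libraries, each being the average of its markers after centring every marker's log2 CPM. None of the 68 relations over 8 libraries passed adjustment, the lowest exact permutation p being 0.0618 after adjustment. Because all levels are shares of 1 total, such relations are not free of each other. The largest with the cardiomyocyte score was that of Tln1, with r = 0.93 (exact permutation p = 0.0027, adjusted 0.0618) and a Spearman coefficient of 0.76 (exact permutation p = 0.0368, adjusted 0.236). Without the outermost libraries of that score, soft 4 and stiff 4, it was r = 0.62. Lpp went the other way, with r = -0.85 (exact permutation p = 0.00866, adjusted 0.063) and a Spearman coefficient of -0.71 (exact permutation p = 0.0576, adjusted 0.236), and r = -0.62 without soft 4 and stiff 4. For Flnc and the fibroblast score, r = 0.88 (exact permutation p = 0.00226, adjusted 0.0618) and a Spearman coefficient of 0.86 (exact permutation p = 0.0107, adjusted 0.182), and r = 0.89 without soft 3 and soft 4. Ilk stood at r = 0.87 (exact permutation p = 0.00273, adjusted 0.0618) and a Spearman coefficient of 0.74 (exact permutation p = 0.0458, adjusted 0.236) with the fibroblast score and r = 0.89 without those libraries. Git2 fell with the fibroblast score, with r = -0.84 (exact permutation p = 0.0111, adjusted 0.063) and r = -0.64 without soft 3 and soft 4. Its Spearman coefficient was -0.90 (exact permutation p = 0.00456, adjusted 0.182). With the fibroblast score, r was positive for 25 members and negative for 9, and with the cardiomyocyte score for 24 and 10. Flnc also had r = 0.85 with the cardiomyocyte score (exact permutation p = 0.0134, adjusted 0.070). Without soft 4 and stiff 4 it was r = 0.19. The Spearman coefficient of Flnc with that score was 0.71 (exact permutation p = 0.0576, adjusted 0.236). With the cardiomyocyte score Ilk had r = 0.86 (exact permutation p = 0.0111, adjusted 0.063). Its Spearman coefficient with that score was 0.81 (exact permutation p = 0.0218, adjusted 0.236). Without soft 4 and stiff 4 it was r = 0.20. Leaving out the outermost libraries also removes much of the spread of the score, so this value cannot say what the relation rested on.

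The balance within related genes was examined as 1 gene's share of the counts of a pair, which does not depend on library scaling. Since transcript lengths were not used, a share can be compared between libraries but does not say which protein is more abundant. Of 13 pairs, 0 differed between substrates in the exact two-sided permutation test; the lowest p was 0.0857, that of the tensins, with an adjusted p of 0.929 over the 13 pairs, and the smallest p the design allows is 0.0286. The mean ± SD share of Tns3 in tensin counts was 36.3% ± 0.443 on soft and 39.0% ± 3.11 on stiff (n = 4 each), and the soft libraries lay within 1 percentage point of each other while stiff 2 reached 43.4%. Tln2 made up 41.6% ± 8.25 on soft and 44.5% ± 5.23 on stiff of talin counts, Flnc 18.8% ± 6.10 on soft and 18.6% ± 1.86 on stiff of the filamin pair, and Lims2 8.98% ± 3.67 on soft and 7.89% ± 1.83 on stiff of the PINCH pair. In soft 4 the Flnc share was 27.8%, against 14.6% to 16.8% in the other soft libraries. The Lpp share of Zyx and Lpp was 83.0% in soft 4 and 94.8% to 96.6% in the rest of that group. Git2 made up 65.2% ± 10.8 on soft and 69.5% ± 3.39 on stiff of the GIT pair, again with soft 4 the lowest library, at 50.3%.

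**Figure D4:**
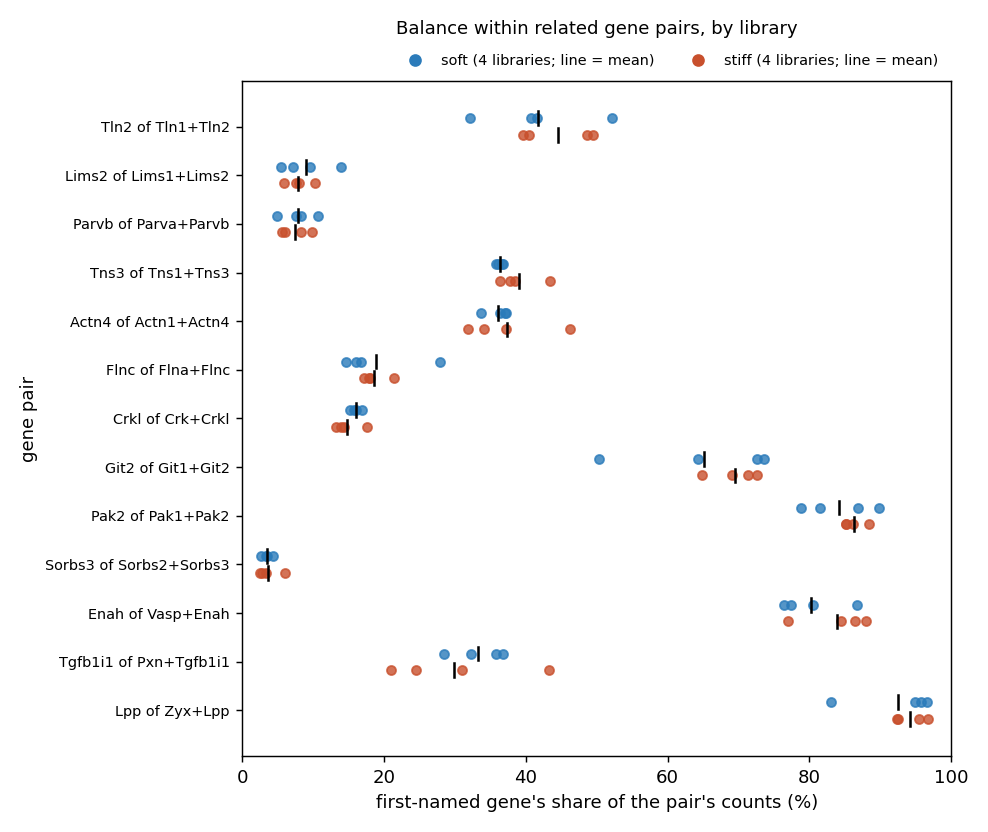
Share of the first-named gene in the summed counts of 13 related gene pairs (percent), with 1 point per soft (blue) or stiff (red) library and the group means as lines. Points of the 2 substrates overlap in every pair, and the point lying furthest below its group for Git2 and Lpp, and above it for Flnc, is soft 4.

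Other genes of the adhesion pathway were read from the same fit. Of 31 other adhesion adaptors tested, 0 were called in either direction and 0 had an unadjusted p under 0.05, against 0.925% of all tested genes, with 22 lower and 9 higher estimates and a median log2 fold change of -0.06. In this list Efs, a relative of p130Cas, had a mean ± SD of 17.9 ± 2.13 (soft) and 13.1 ± 4.76 (stiff) CPM (n = 4 each), the LIM protein gene Pdlim7 at 103 ± 67.7 (soft) and 75.0 ± 24.1 (stiff) CPM and Kank1, a talin-binding protein gene, at 137 ± 8.67 (soft) and 157 ± 28.2 (stiff) CPM. The genes of the list with the highest CPM (not corrected for length), Pdlim5 and Fhl2, both of Z-discs, had log2 fold changes of 0.01 and -0.11. The 24 other signalling genes of adhesions had 0 calls, 10 lower and 14 higher estimates and a median of 0.04. Here Arhgef6 (alpha-PIX) stood at 59.2 ± 9.94 (soft) and 68.9 ± 8.13 (stiff) CPM, Pak4 at 45.4 ± 9.61 (soft) and 37.9 ± 7.61 (stiff) CPM and Csk, the kinase that restrains Src, at 32.5 ± 5.98 (soft) and 27.8 ± 1.70 (stiff) CPM, and Asap1, highest by CPM, had a log2 fold change of -0.03. Soft and stiff ranges separated for 0 genes of these 2 lists, against 1.29% of all tested genes.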

How the data were processed

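Total RNA was sequenced in 8 libraries. The authors deposited raw read counts per gene, and per the submitters' processing notes the tools included HTSeq 0.6.1, TopHat2 2.0.14, Bowtie2, Cufflinks, FastQC 0.11.2, edgeR and DESeq2, and GRCm38 is the build they name. The notes do not say which made the counts. How strand was handled is not given in the sources used here, so reads of overlapping antisense genes may be included. The coding table was used whole, with 29150 of its 29844 rows carrying a symbol; the non-coding table was not used.

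Genes passing edgeR's filterByExpr (minimum count 10) were scaled by TMM and tested with edgeR 4.0.16's quasi-likelihood test in R 4.3.3, with Benjamini-Hochberg adjustment over all 14059 genes. Substrate was the sole term. Standard errors are the log2 fold change divided by the root of F. Alternatives used DESeq2 1.42.0 and limma 3.58.1. Permutation tests and correlations were computed directly in Python, with ranks from scipy 1.17.1, and log2 CPM had a prior count of 2. The test was checked on simulated data first. The members and lists were chosen with earlier results of these data known. Values per library are given for the 12 members with the highest mean CPM and the 8 with the smallest p, and from each wider list for up to 3 genes by p and 2 by CPM; 1 further list and 1 gene so chosen are not reported here.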

Additional observations from a re-analysis of the deposited data

Results flagged for a closer look

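In 94 groups of 4 library values (each member's CPM and each pair's share, by substrate), 4 had an extreme library whose gap to its nearest neighbour, divided by the range of the group, passed Dixon's 95% critical value for 4 values. Chance flags about 1 in 20 such groups. Tln2 (talin-2) stood at 331.2 CPM in stiff 1, above the 270.4 to 278 CPM of the other stiff libraries. Enah (Mena) stood at 620.9 CPM in stiff 4, and leaving that library out turned its log2 fold change from 0.11 to -0.11. The other 2 were both soft 4: Flnc made up 27.83% of the filamin pair there, and Lpp 82.99% of the pair of Zyx and Lpp. The cardiomyocyte, fibroblast and epicardial marker sums were all highest in the same library, and their part in either share was not tested.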

How the results depend on the processing

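Calls among the members stayed at 0 under every alternative run: RLE scaling, library totals, no filter, a filter of 1 CPM in 4 libraries, DESeq2, limma-voom, the replicate block and each library left out. The count of lower estimates ran from 18 (without soft 4) to 26 (without stiff 4) and the members' median log2 fold change from -0.13 (without soft 1) to -0.02 (without soft 4). Without stiff 4, 1 member, Tgfb1i1, passed an unadjusted p of 0.05 with a log2 fold change of -0.69 and an adjusted p of 1.0, while without soft 4 it stood at -0.21. Over all coding genes, 130 had an unadjusted p under 0.05 by edgeR, and the alternatives on all 8 libraries gave 122 to 473, with DESeq2 at 322 and the no-filter fit, which tested 17351 genes, at 473. The replicate block used the library number, which follows sample order and which the labels do not say pairs libraries. Deviations from the substrate means correlated at 0.10, 0.18, 0.13 and 0.31 for the same numbers, but soft 1 went slightly better with stiff 2 (0.11). The 4 members with 1 sign in all same-numbered libraries (Actn1, Flna, Tgfb1i1 and Git2) had an adjusted p of 1.0 by edgeR with the replicate block. With the block, 360 genes had an unadjusted p under 0.05 and 0 were called. limma-voom with the block, added after seeing the data, called 8 of all genes and 0 members. Pak2, at 0.0009 without it, turned to -0.0025 with the replicate block, to -0.0023 with limma-voom and to -0.00091 with both. The share of raw counts planned as an alternative for the gene pairs is the share reported, since no transcript lengths were used, and was not run separately.

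Leaving out single libraries turned the sign of 21 members and kept that of 13. Soft 4 alone turned Flnc (-0.45 to 0.20), Zyx (-0.46 to 0.14), Git1 (-0.31 to 0.16), Ilk (-0.21 to 0.14), Tln1 (-0.23 to 0.13), Lims2 (-0.25 to 0.070) and Src (-0.18 to 0.020), given as ranges over all left-out libraries. Soft 4 or stiff 2 turned Arhgef7 (-0.11 to 0.15), Lims1 (-0.060 to 0.16) and Pak2 (-0.12 to 0.069) and, with 2 other libraries, Vcl (-0.084 to 0.16). Soft 4 and 3 libraries other than stiff 2 turned Fermt2 (-0.039 to 0.085). Stiff 2 turned Crk (-0.0049 to 0.16), Parva (-0.18 to 0.012) and, with soft 2, Parvb (-0.35 to 0.024). Other libraries turned Crkl (-0.14 to 0.031), Enah (-0.11 to 0.19), Lpp (-0.28 to 0.089), Ptk2 (-0.17 to 0.023), Rsu1 (-0.030 to 0.11) and Tns3 (-0.033 to 0.093). The stiff minus soft difference in share, in percentage points, spanned 0 for Actn4 (-1.74 to 3.08), Flnc (-1.61 to 2.82), Git2 (-0.68 to 7.08), Lims2 (-2.25 to 0.55), Lpp (-1.496 to 3.04), Parvb (-1.41 to 0.48), Sorbs3 (-0.53 to 0.62) and Tln2 (-0.34 to 6.38). The cause was not tested.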
